A study of Mus musculus with 24 samples.

Results

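Intergenic active enhancers are stretches of chromatin between genes that carried the histone mark H3K27ac in these nuclei and that the deposited peak table gives the chromatin state active enhancer. They were taken as every peak with that state, an annotation beginning with Intergenic and a width under 10000 bp, which gave 14500 of 144154 peaks (10.1%). The widest measured 9996 bp, and 246 wider intergenic active enhancers, the narrowest 10010 bp, were kept out, among them the large regions beside Egr1 and Arc. A filter on low counts left 14493 of the 14500, and all counts below refer to these.

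The marks were measured by low-input ChIP-seq in nuclei positive for NeuN, a protein of mature neurons, sorted from the dentate gyrus. The mice were C57BL/6 males aged 12 weeks, and the sample titles name the hippocampus. Mice in all 4 groups received an injection 1 h before they entered a conditioning chamber and were killed 1 h after it. Veh-Context mice received vehicle and explored the chamber, Veh-CFC mice received vehicle and foot shocks there (contextual fear conditioning), and HDACi-Context and HDACi-CFC mice had the same exposures after CI-994 at 30 mg/kg. CI-994 blocks histone deacetylases of class I. Each group had 3 libraries, and the matching input samples were not analysed here. The series' design text states 3 treatments with 4 replicates, which differs from the sample labels, and the labels were followed. Nothing in the labels says that the 3 libraries came from separate animals, so p-values measure the spread between these libraries. Mice of a cage shared their conditioning, so effects of shock and of cage cannot be told apart.

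Acetylation of lysine 27 on histone H3 is placed by the acetyltransferases p300 and CBP, removed by deacetylases, and found at promoters and enhancers in use. An active enhancer carries this mark together with H3K4 monomethylation, whereas a primed enhancer carries the monomethylation alone in the reference state. In neurons, calcium entering during activity switches on factors such as the AP-1 proteins Fos and Jun, which bind distal enhancers and recruit acetyltransferases there. An enhancer can act on a gene far along the chromosome, so the gene that the deposited annotation names beside a region is its nearest start site and not a shown target.

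Of the 14493 regions, 418 (2.88%) held at least 1 whole RefSeq start window, the 300 bases from 250 before to 50 after an annotated transcription start (GRCm38.p6). There were 486 such windows, 437 of long non-coding RNAs and 49 of protein-coding genes. The windows printed here are those inside individual regions whose values are described below, and most regions hold none. Those of Adora1 (chr1:134235408-134235707, minus strand) and Gramd1a (chr7:31151122-31151421, minus strand) lie in regions with some of the largest named rises after shock in vehicle-treated mice, and Hpca (chr4:129121698-129121997, minus strand) and Gm11734 (chr11:117522930-117523229, plus strand) lie in regions where the drug effect differed between shocked and unshocked mice. The window of Gm31226 (chr6:49633381-49633680, plus strand) lies in a region upstream of Npy that fell after shock. Each reads 5′ to 3′ on its gene's strand, and capitals mark TGANTCA or CAGATG, an E-box bound by NEUROD factors, on either strand. TGANTCA takes any base at its centre and includes the AP-1 motif, TGACTCA or TGAGTCA. The match at Adora1 is TGAATCA, and that at Gm31226 is TGAGTCA. Adora1, Gramd1a and Hpca are thus regions that the deposited table calls intergenic although RefSeq places a start of the named gene inside them.
Adora1: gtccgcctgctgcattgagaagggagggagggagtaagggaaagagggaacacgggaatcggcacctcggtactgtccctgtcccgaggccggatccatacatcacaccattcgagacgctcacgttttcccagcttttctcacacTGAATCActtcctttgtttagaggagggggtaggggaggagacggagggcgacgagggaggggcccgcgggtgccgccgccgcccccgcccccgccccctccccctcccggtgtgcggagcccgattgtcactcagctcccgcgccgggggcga
Gramd1a: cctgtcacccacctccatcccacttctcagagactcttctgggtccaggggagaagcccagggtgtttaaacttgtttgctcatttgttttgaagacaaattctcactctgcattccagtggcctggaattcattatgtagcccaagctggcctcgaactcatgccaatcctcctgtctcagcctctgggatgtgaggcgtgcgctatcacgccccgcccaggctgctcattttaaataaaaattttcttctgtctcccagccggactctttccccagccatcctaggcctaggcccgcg
Hpca: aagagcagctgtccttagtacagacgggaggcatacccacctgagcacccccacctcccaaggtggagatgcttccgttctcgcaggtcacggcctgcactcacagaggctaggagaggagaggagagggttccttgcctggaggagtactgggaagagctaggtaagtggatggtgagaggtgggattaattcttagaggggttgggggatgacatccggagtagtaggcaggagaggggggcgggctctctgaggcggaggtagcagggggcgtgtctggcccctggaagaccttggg
Gm11734: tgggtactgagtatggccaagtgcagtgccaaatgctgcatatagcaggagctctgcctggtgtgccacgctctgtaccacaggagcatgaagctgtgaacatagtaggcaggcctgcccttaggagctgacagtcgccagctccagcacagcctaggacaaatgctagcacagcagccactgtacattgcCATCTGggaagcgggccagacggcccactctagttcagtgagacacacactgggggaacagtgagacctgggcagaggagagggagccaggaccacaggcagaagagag
Gm31226: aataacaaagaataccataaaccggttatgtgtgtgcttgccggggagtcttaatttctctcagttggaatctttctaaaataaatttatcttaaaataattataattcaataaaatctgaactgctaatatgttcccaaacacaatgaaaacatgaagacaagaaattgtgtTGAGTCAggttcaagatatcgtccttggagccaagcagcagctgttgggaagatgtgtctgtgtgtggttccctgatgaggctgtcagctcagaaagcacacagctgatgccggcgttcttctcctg

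Within the 486 windows, TGANTCA occurred in 10.3%, against 7.81% of all 32851 RefSeq windows, and CAGATG in 23.0% against 17.2%. The cyclic AMP response element TGACGTCA occurred in 4 windows (0.823%) against 1.79%, and a MEF2 motif in 8 windows (1.65%) against 0.557%. No matching for biotype or GC content was done. Median GC content was 49.3% against 52.7%. All motifs were searched on both strands, and none contains another. These shares describe start windows, which lie in few of the regions. With shock under CI-994, 138 of the 418 regions that held a window rose (33%) and 49 fell (11.7%), against 18.2% and 17.7% of the 14075 that held none. With shock under vehicle 17 rose and 24 fell (median log2 fold change −0.06, against −0.14 without a window). With the drug in Context mice 5 rose (1.2%) and 74 fell (17.7%), at a median of −0.18. Without a window 1.35% rose and 6.83% fell, at a median of −0.08. The median SE in that comparison was 0.15 with a window and 0.21 without, so calls passed more easily with one.

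The regions had a median width of 1554 bp and a median distance to the named start site of 40842 bp. Of the 14493, 63.56% lay upstream of that start, 17.33% lay within 10 kb of it and 26.09% lay over 100 kb away. They were named for 4819 genes. The median level was 4.45 CPM (counts per 1000000 peak counts of a library, after TMM scaling, which applies a correction factor to each library). Per kilobase of width it was 2.93 CPM. This was close to the 2.89 of 22410 intronic active enhancers and the 2.79 of 8283 intergenic primed enhancers chosen under the same width limit. The regions were clustered along the chromosomes, and 68.13% had another within 12.5 kb. There were 555 stretches of 5 or more, the largest with 26 regions beside Kcng1, a modulatory potassium channel subunit (chr2:168299499-168404025).

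Counts in peaks summed to between 6639158 and 16734757 per library, of which 782036 to 1870622 fell in intergenic active enhancers. Marker genes were checked for a peak named for the gene and centred within 5 kb of its start. A wide peak centred farther off, or a peak named for another gene, was not counted. Marker sums in this paragraph are CPM without TMM scaling. Granule neuron markers had such a peak at 16 of 17 genes, and the exception was Prox1. Astrocyte and CA pyramidal markers each had one at 12 of 13 genes, and microglial markers at 12 of 15. Of 22 interneuron markers, 16 had none, including Gad2, Slc32a1, Pvalb, Sst and Vip. Among endothelial markers 7 of 12 had none. Oligodendrocyte markers had such a peak at 13 of 13 genes. Their summed level was 271 to 286 CPM in Veh-Context, 321 to 439 CPM in Veh-CFC, 214 to 248 CPM in HDACi-Context and 333 to 387 CPM in HDACi-CFC libraries. Every CFC library thus stood above every Context library, and the same held for microglial markers, at 82.1 to 125 CPM with shock and 55.3 to 81.6 CPM without. It also held for markers of oligodendrocyte precursors (56.6 to 92.6 CPM against 30.1 to 49.4 CPM), of endothelial and mural cells (15.9 to 21.4 CPM against 11.1 to 14.3 CPM) and, among neurons, of CA pyramidal cells (144 to 175 CPM against 117 to 139.9 CPM). Over both treatments together, markers of granule neurons, interneurons and astrocytes overlapped between CFC and Context libraries. Within each treatment, interneuron and astrocyte markers did not. Interneuron sums were 115 to 119 CPM in Veh-CFC against 99.5 to 106 CPM in Veh-Context. Under CI-994 they were 95.3 to 109 CPM with shock and 71.8 to 82.5 CPM without. Granule neuron markers overlapped under CI-994 (422 to 508 CPM against 390 to 428 CPM). Under vehicle they did not (512 to 576 CPM against 442 to 496.5 CPM). A higher level near starts was not limited to marker genes. Peaks of the strong promoter state held 10.8% to 12.8% of counts in the CFC libraries and 8.27% to 10.7% in the Context libraries. The part of any cell type in the shock results below was not tested, and in bulk nuclei more cells of a type and more signal per cell cannot be told apart.

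After foot shock a smaller share of the mark lay in intergenic active enhancers. They held 11.9%, 12.1% and 12.1% of the counts in the Veh-Context libraries, 10.7%, 10.9% and 10.8% in Veh-CFC, 11.52%, 11.2% and 11.6% in HDACi-Context, and 10.8%, 10.8% and 10.6% in HDACi-CFC. All 6 CFC libraries lay below all 6 Context libraries, and in the unshocked mice the CI-994 libraries lay below the vehicle libraries. Intergenic primed enhancers also held less in CFC libraries (2.83% to 2.98%) than in Context libraries (3.31% to 4.06%), whereas the share of intronic active enhancers overlapped between the groups (18.3% to 19.8%). Strong promoters, another state of the deposited table, went the other way, with 10.8% to 12.8% of counts in the CFC libraries and 8.27% to 10.7% in the Context libraries. In a principal component analysis of the regions, the first component held 43.7% of the variance and placed all CFC libraries on one side of all Context libraries. On it Veh-CFC replicate 3 (2.58) lay nearer to Veh-Context replicate 3 (−6.02) than to Veh-CFC replicate 1 (43.4). Veh-CFC replicate 3 correlated more with Veh-Context replicate 3 (0.95) and replicate 1 (0.94) than with Veh-CFC replicate 1 (0.92), as a description over the regions.

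**Figure D1:**
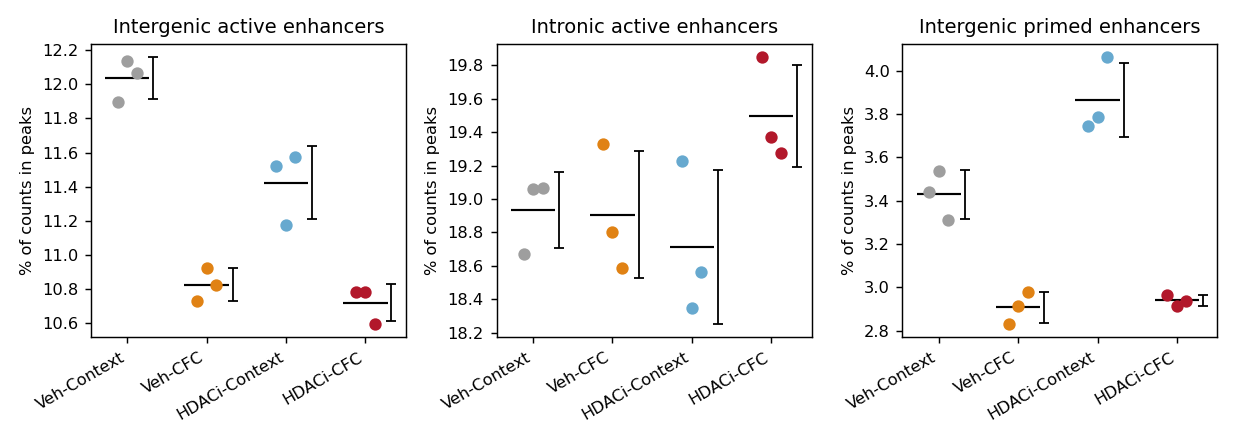
Percent of all peak counts that lay in intergenic active, intronic active and intergenic primed enhancers, 1 point per library, with the group mean (line) and SD (bar, n = 3); the axes do not start at 0. The intergenic active share lies between 10.6% and 10.9% in the CFC libraries and between 11.2% and 12.1% in the Context libraries.

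The first comparison asked what shock did in vehicle-treated mice, Veh-CFC against Veh-Context. Lower levels prevailed: 785 regions fell (5.42%) and 221 rose (1.52%), against 2.74% lower and 4.41% higher among all 144014 peaks tested by edgeR. The median log2 fold change was −0.13, against 0.04 in intronic active enhancers (1171 higher, 480 lower) and −0.20 in intergenic primed enhancers (41 higher, 391 lower). Among the rises were regions beside Adora1, the adenosine A1 receptor that dampens transmitter release, Sema6b, a semaphorin of axon guidance, Gramd1a, a sterol transporter, and Dusp7, a phosphatase of MAP kinases. The Dusp7 call failed when leaving out Veh-Context replicate 1 or Veh-CFC replicate 1 (edgeR adjusted p = 0.053 and 0.068). Drops lay far from genes, and the 785 had a median distance of 106607 bp against 10034 bp for the rises.

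The Adora1 region (chr1:134235052-134238372), 1.25 kb upstream of the named start, had 5.38, 6.77 and 7.57 CPM in the Veh-Context libraries, 18.8, 12.5 and 9.06 in Veh-CFC, 6.33, 5.85 and 5.10 in HDACi-Context and 17.3, 14.2 and 14.4 in HDACi-CFC. All 6 shocked libraries stood above all 6 unshocked ones. Its log2 fold change after shock was 1.04 ± 0.19 (SE; edgeR adjusted p = 0.0015) under vehicle. Gramd1a (chr7:31151086-31153492) had 4.63, 6.18 and 6.69 CPM in the Veh-Context libraries, 14.9, 11.2 and 8.35 in Veh-CFC, 4.87, 3.88 and 4.08 in HDACi-Context and 12.5, 12.9 and 9.83 in HDACi-CFC, and again the shocked libraries did not overlap the unshocked ones. The log2 fold change was 0.99 ± 0.19 (SE; edgeR adjusted p = 0.0017). At Sema6b (chr17:56140438-56142933) the libraries gave 1.64, 2.35 and 2.28 CPM in the Veh-Context libraries, 9.25, 4.24 and 4.105 in Veh-CFC, 2.78, 2.96 and 1.70 in HDACi-Context and 10.3, 6.03 and 9.16 in HDACi-CFC, with Veh-CFC replicate 1 far above its group. The log2 fold change of 1.5 ± 0.31, with an edgeR adjusted p of 0.0049, did not pass without that library (adjusted p = 0.065). A region 3.46 kb upstream of Gse1 (chr8:120483312-120487504) rose by 1.02 ± 0.19 (SE; edgeR adjusted p = 0.004) on the log2 scale.

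Of the regions that fell, 1 lay 619 kb downstream of Iqcm (chr8:76066349-76069221) and had 12.0, 14.0 and 11.7 CPM in the Veh-Context libraries, 4.37, 7.32 and 6.51 in Veh-CFC, 12.4, 12.9 and 11.6 in HDACi-Context and 5.94, 5.30 and 5.96 in HDACi-CFC. Every unshocked library was above every shocked one. Its log2 fold change was −1.02 ± 0.17 (SE; edgeR adjusted p = 0.00057). The region 169.7 kb upstream of Slc7a11, the exchanger that imports cystine for glutamate (chr3:50612328-50614390), had 10.0, 10.3 and 8.82 CPM in the Veh-Context libraries, 3.34, 4.77 and 6.23 in Veh-CFC, 8.97, 11.4 and 13.1 in HDACi-Context and 7.10, 6.34 and 7.14 in HDACi-CFC, and no Veh-CFC library reached a Veh-Context library. It changed by −1.02 ± 0.20 (SE; edgeR adjusted p = 0.0018) on the log2 scale. Beside Osbpl8, a lipid transfer protein, a region 64.9 kb upstream had the largest named drop, at −1.39 ± 0.24 (SE; edgeR adjusted p = 0.00056). Tafa5, which encodes a secreted protein, A730004F24Rik and Gm10440 followed, with log2 fold changes of −1.02 ± 0.20, −1.05 ± 0.23 and −1.02 ± 0.22 (SE). Of these, the A730004F24Rik call was lost without Veh-CFC replicate 1 (edgeR adjusted p = 0.066).

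The number of calls rested on single libraries. Of 1006 regions called, the count was 188 without Veh-Context replicate 1, 569 without Veh-Context replicate 2, 112 without Veh-CFC replicate 1 and 601 without Veh-CFC replicate 2, with more drops than rises each time. DESeq2 called 597.

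Shock under CI-994, HDACi-CFC against HDACi-Context, moved more regions, and in both directions. By edgeR 2705 rose (18.7%) and 2543 fell (17.5%), against 20.2% and 17.8% of all peaks, so the shares were near those of the whole table. The median log2 fold change was −0.06, against 0.12 in intronic active enhancers (6411 higher, 2362 lower) and −0.34 in intergenic primed enhancers (574 higher, 2436 lower). With library totals in place of TMM scaling the members split into 2072 higher and 3977 lower, and the median of all peaks moved from −0.05 to −0.18. Of the regions called under vehicle, 205 of the 221 rises (92.8%) and 544 of the 785 drops (69.3%) were called in the same direction here. They made up 7.58% of the 2705 rises and 21.4% of the 2543 drops. The comparisons share no library.

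**Figure D2:**
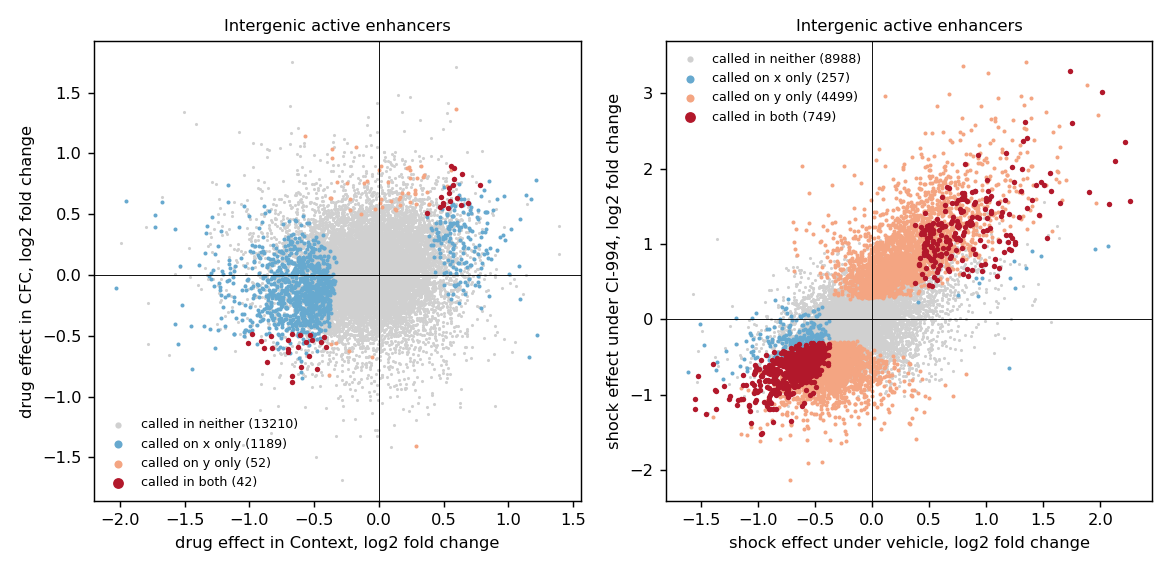
Log2 fold change of each of the 14493 regions: the drug effect in CFC against that in Context (left) and the shock effect under CI-994 against that under vehicle (right), with regions called by edgeR in colour. The regions called in both comparisons of a panel, 42 and 749, lie in the lower left and upper right.

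The largest named rise was a region beside Zcchc14 (chr8:121653257-121655590), a zinc finger gene, with 2.46, 2.94 and 5.00 CPM in the Veh-Context libraries, 15.2, 8.16 and 4.67 in Veh-CFC, 2.50, 1.45 and 1.16 in HDACi-Context and 14.1, 9.36 and 8.57 in HDACi-CFC. The 3 HDACi-CFC libraries were all above both unshocked groups, and the Veh-CFC libraries spread widely. Its log2 fold change under CI-994 was 2.66 ± 0.46 (SE; edgeR adjusted p = 0.0017). A region 5.50 kb downstream of Mir3080 followed at 2.48 ± 0.22 (SE; edgeR adjusted p = 4.09e-11), and regions beside Maf1, a repressor of RNA polymerase III, and 2900026A02Rik rose by 2.14 ± 0.44 and 2.34 ± 0.43 (SE). Adora1 rose by 1.42 ± 0.18 (SE; edgeR adjusted p = 8.72e-08) and Gramd1a by 1.46 ± 0.18 (SE; edgeR adjusted p = 3.09e-08) in this comparison.

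A region 410.1 kb downstream of Tmem161b (chr13:84630420-84634296) fell most among those named, with 16.7, 16.1 and 16.2 CPM in the Veh-Context libraries, 6.04, 9.33 and 11.6 in Veh-CFC, 16.6, 19.1 and 20.8 in HDACi-Context and 9.35, 6.34 and 6.13 in HDACi-CFC. All 6 shocked libraries were below all 6 unshocked ones. It changed by −1.35 ± 0.16 (SE; edgeR adjusted p = 2.47e-08) under CI-994 and −0.87 ± 0.17 (SE; edgeR adjusted p = 0.0026) under vehicle, on the log2 scale. At Nell2, which encodes a secreted glycoprotein of neurons, a region 14.6 kb upstream (chr15:95542357-95544441) fell in both comparisons as well, by log2 changes of −1.18 ± 0.17 and −0.90 ± 0.19 (SE), again with no overlap between shocked and unshocked libraries. Without any 1 of the 12 libraries, the count of calls ranged from 3508 to 5756.

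Distance to the nearest start site ordered the shock effect. Under vehicle the median log2 fold change was 0.06 for the 2511 regions 1 to 10 kb away, −0.08 at 10 to 30 kb, −0.15 at 30 to 100 kb, −0.25 at 100 to 300 kb and −0.37 for the 894 regions at 300 kb and over. Rises numbered 110 and drops 40 in the nearest group, and 152 drops were called in the farthest. Under CI-994 the medians ran from 0.24 (846 higher, 163 lower) to −0.46 (27 higher, 422 lower). The order of nearest above farthest held in all 7 other settings and all 12 fits without 1 library, for both shock comparisons. The drug effect in Context mice had the opposite order, from −0.13 nearest to 0.01 farthest. It uses the HDACi-Context libraries that shock under CI-994 also uses, with the opposite sign. Opposite changes in those comparisons are therefore not independent results. Intronic active and intergenic primed enhancers showed the same order for shock, from 0.27 to −0.25 and from −0.02 to −0.38 under vehicle, so the order was shared by all 3 kinds of enhancer. A region is placed by its centre, so 88 covered the named start site, of which 53 rose and 3 fell under CI-994 and 13 rose and 1 fell under vehicle. A further 504 had an edge within 1 kb of it, of which 259 rose and 7 fell under CI-994 and 42 rose and 4 fell under vehicle. For the 12911 whose edge lay over 5 kb away, 129 rose and 762 fell under vehicle, and 2092 rose and 2454 fell under CI-994.

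**Figure D3:**
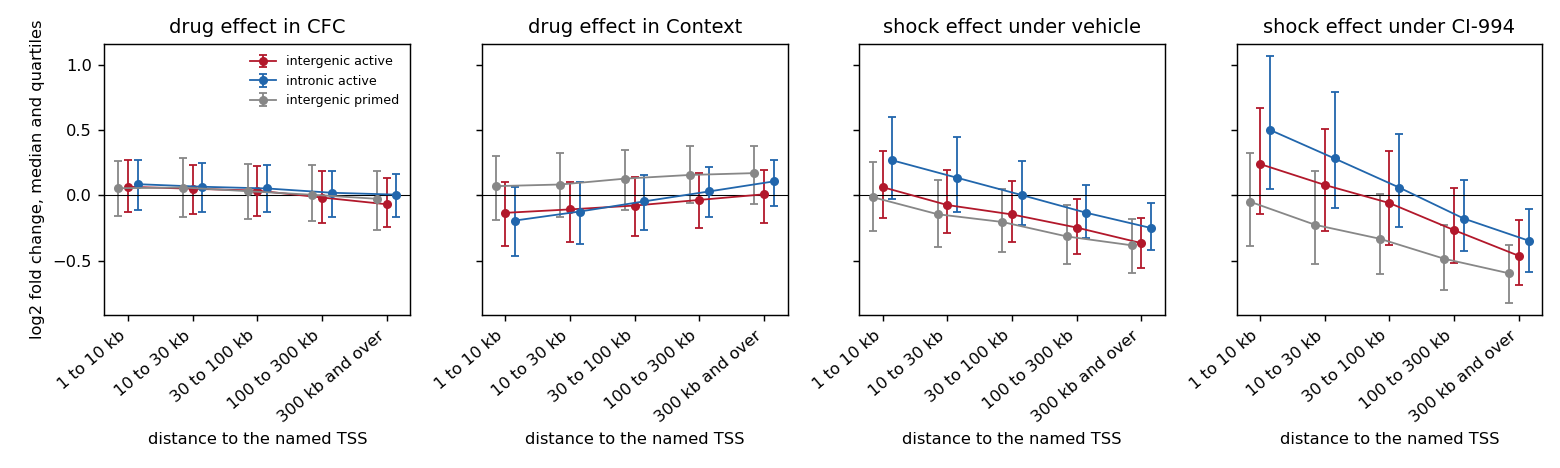
Median log2 fold change (points) with quartiles (bars) by distance to the named start site, in 4 comparisons and 3 kinds of enhancer. For intergenic active enhancers the shock effect under CI-994 runs from 0.24 at 1 to 10 kb to −0.46 at 300 kb and over.

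Gene density ordered it as well. Regions with 0 to 3 protein-coding genes within 500 kb had a median shock effect of −0.32 under vehicle (1 higher, 354 lower) and −0.39 under CI-994 (102 higher, 1104 lower). With 17 or more genes the medians were 0.10 (145 higher, 29 lower) and 0.37 (1242 higher, 97 lower). Among regions 30 kb or more from the start site the same bins had medians of −0.33 and 0.05 under vehicle and −0.39 and 0.34 under CI-994. The gene-poor regions held 20.0% to 21.0% of the member counts in Veh-Context, 16.3% to 19.0% in Veh-CFC, 20.0% to 23.0% in HDACi-Context and 16.7% to 16.98% in HDACi-CFC libraries, so the shocked and unshocked libraries did not overlap. Signal density bore on direction too: of the 3623 regions with the fewest CPM per kilobase, 1045 rose and 318 fell with shock under CI-994, whereas of the 3624 with the most, 724 rose and 849 fell. By chromosome, median shock effects under CI-994 were highest on chromosomes 17 (0.22) and 4 (0.22) and lowest on chromosomes 3 (−0.30) and X (−0.29).

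Regions close together changed alike. Across 7002 pairs of neighbouring regions within 12.5 kb, the shock effects under CI-994 had a Pearson correlation of 0.48, against 0.36 for 3462 neighbouring pairs over 100 kb apart. The values under vehicle were 0.35 and 0.23. These are descriptions across regions measured in the same libraries. Stretches differed in direction. One of 24 regions lay beside Camk2n1, an inhibitor of the kinase CaMKII, and Vwa5b1 (chr4:138472982-138563730). There 14 rose and 0 fell with shock under CI-994 (median 0.66), against 20.2% and 17.8% of all peaks. With the drug in Context mice 7 fell and 0 rose, against 5.85% and 2.73% of all peaks, and both comparisons use the HDACi-Context libraries. In a stretch of 22 regions beside 4930425L21Rik and Emp1 (chr6:135491642-135595501), 0 rose and 11 fell with shock under CI-994 (median −0.57).

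Some genes had 30 or more regions, and 4 of these genes, chosen after their values were seen, differed in direction. Beside Celf2, a regulator of RNA splicing, 20 of 32 regions fell with shock under CI-994 (median −0.60) and 6 fell under vehicle. Their summed level was 231, 213 and 210.5 CPM in the Veh-Context libraries, 134, 168 and 175 in Veh-CFC, 204, 215 and 232 in HDACi-Context and 153, 149 and 135 in HDACi-CFC, with shocked below unshocked throughout. Beside Gria1, the AMPA receptor subunit GluA1, 11 of 30 fell under CI-994 (median −0.42) and 3 under vehicle. Beside Kcng1, 17 of 36 rose and 2 fell under CI-994 (median 0.46). Its sums were 189, 214 and 219 CPM in Veh-Context, 243, 233 and 210.5 in Veh-CFC, 207, 180.0 and 159 in HDACi-Context and 239.7, 265 and 267 in HDACi-CFC, so the HDACi groups did not overlap whereas the vehicle groups did. Beside Vrk1, a nuclear kinase, 11 of 42 rose and 1 fell under CI-994 (median 0.28). For comparison, 20.2% of all peaks rose and 17.8% fell under CI-994, and 4.41% and 2.74% under vehicle. Most Celf2 and Gria1 regions lay over 100 kb from the start. Of all regions at 100 to 300 kb, 7.31% rose and 26.7% fell under CI-994, and at 300 kb and over 3.02% and 47.2%.

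**Figure D4:**
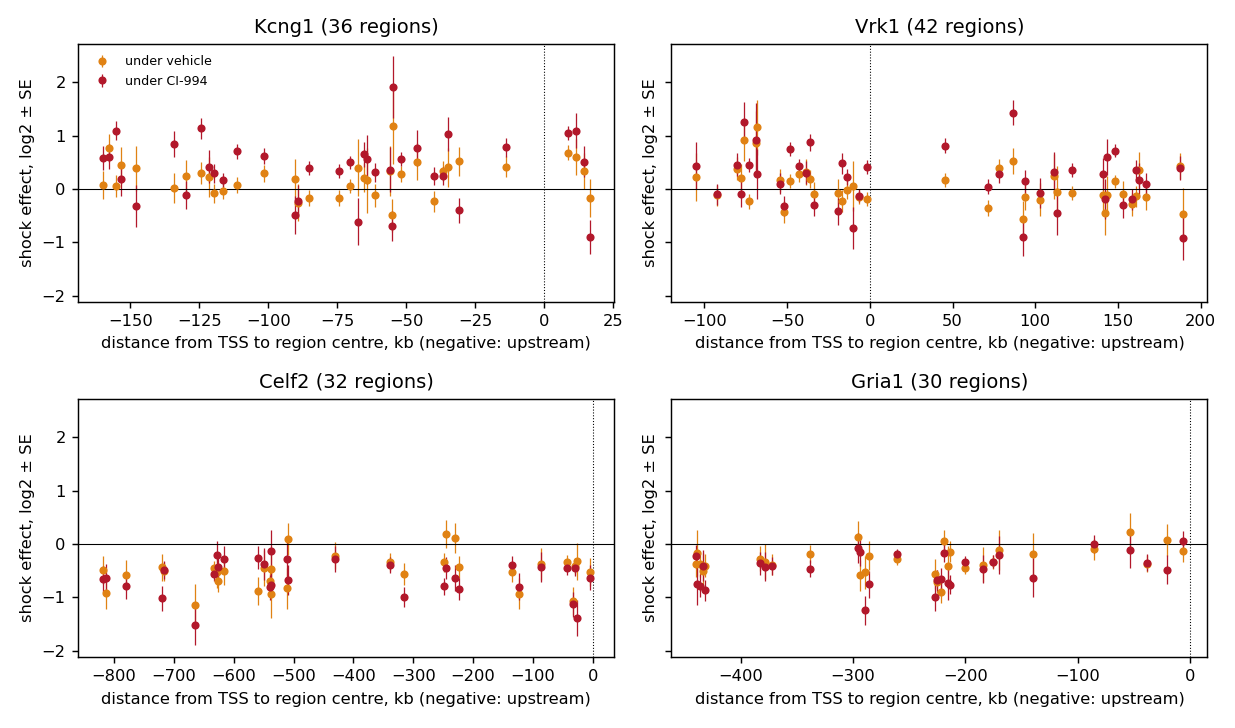
Shock effect (log2 fold change ± SE) of each intergenic active enhancer beside Kcng1, Vrk1, Celf2 and Gria1 against its distance from the start site in kb, under vehicle and under CI-994. Under CI-994 all 32 Celf2 regions lie below 0, and 28 of 36 Kcng1 regions lie above 0.

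With CI-994 in unshocked mice, HDACi-Context against Veh-Context, more regions were called lower than higher, relative to the peaks as a whole. By edgeR 1036 fell (7.15%) and 195 rose (1.35%), against 5.85% and 2.73% of all peaks. The median log2 fold change was −0.08, against −0.07 in intronic active enhancers (318 higher, 1128 lower) and 0.12 in intergenic primed enhancers (332 higher, 85 lower). Called drops were most frequent in the regions of densest signal: of the 3624 regions with the most CPM per kilobase, 734 fell and 45 rose (median −0.19). Of the 3623 with the fewest, 70 fell and 33 rose (median −0.07). Regions of densities between these had medians of −0.02 and −0.03. The median SE was 0.14 in the densest regions and 0.30 in the least dense, so calls passed more easily in dense regions. Rises included a region beside Nptx2, a secreted pentraxin that gathers AMPA receptors. Drops included regions beside Fem1a, of a ubiquitin ligase, and Hsp90ab1, the constitutive HSP90 chaperone.

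At Nptx2, 77.8 kb downstream of the start (chr5:144622461-144624892), the levels were 6.42, 5.59 and 6.10 CPM in the Veh-Context libraries, 6.68, 6.89 and 6.79 in Veh-CFC, 10.2, 11.01 and 11.2 in HDACi-Context and 10.7, 9.46 and 8.99 in HDACi-CFC, so both drug groups stood above both vehicle groups. Its log2 fold change in Context was 0.82 ± 0.15 (SE; edgeR adjusted p = 0.0003), while that in CFC was 0.52 ± 0.17 (SE; edgeR adjusted p = 0.12).

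Fem1a (chr17:56254544-56256760) had 15.3, 16.5 and 15.7 CPM in the Veh-Context libraries, 15.3, 18.3 and 14.7 in Veh-CFC, 7.58, 5.45 and 7.89 in HDACi-Context and 12.8, 13.9 and 9.83 in HDACi-CFC. Every HDACi-Context library lay below every vehicle library, and the log2 fold change in Context was −1.19 ± 0.15 (SE; edgeR adjusted p = 1.17e-06). Hsp90ab1 (chr17:45573371-45576972), 1.91 kb upstream of the start, gave 16.3, 19.6 and 24.0 CPM in the Veh-Context libraries, 39.4, 30.6 and 31.0 in Veh-CFC, 11.47, 9.51 and 6.39 in HDACi-Context and 26.7, 28.6 and 27.1 in HDACi-CFC. Its drug effect in Context was −1.13 ± 0.16 (SE; edgeR adjusted p = 1.35e-05), and its shock effect under vehicle was 0.75 ± 0.15 (SE; edgeR adjusted p = 0.0035). Without Veh-Context replicate 3 the count of calls in this comparison was 444, without HDACi-Context replicate 2 it was 619 and without HDACi-Context replicate 3 it was 664. Library totals gave 322 higher and 770 lower.

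In shocked mice, HDACi-CFC against Veh-CFC, few regions differed: 64 rose (0.442%) and 30 fell (0.207%), against 0.483% and 0.435% of all peaks by edgeR. Intronic active enhancers had 166 higher and 17 lower, and intergenic primed enhancers 35 and 7. Rises included regions beside Mir3080, Irf2bp2, a transcriptional corepressor, Gnaz, a G protein subunit, and Aff3, a nuclear factor of transcription elongation. Drops included regions beside Pja2, a ubiquitin ligase, Hook2, a microtubule linker, and March10. The calls beside Gnaz, Aff3 and Hook2 each failed without any 1 of the 6 CFC libraries other than Veh-CFC replicate 1 (edgeR adjusted p = 0.055 to 0.28), and that beside Mir3080 failed without Veh-CFC replicate 2 (0.058). Of the 64 rises 18 (28.1%) were among the 195 rises in Context mice (9.23% of those), and of the 30 drops 24 (80.0%) were among the 1036 drops there (2.32%). These comparisons share no library.

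Pja2 (chr17:64332316-64334087) had 15.3, 13.5 and 13.4 CPM in the Veh-Context libraries, 13.7, 13.5 and 15.2 in Veh-CFC, 7.72, 8.63 and 10.3 in HDACi-Context and 7.68, 8.11 and 7.22 in HDACi-CFC. The 6 drug libraries were all below the 6 vehicle libraries. Its log2 fold change was −0.88 ± 0.15 (SE; edgeR adjusted p = 0.0019) in CFC and −0.67 ± 0.14 (SE; edgeR adjusted p = 0.0014) in Context. Irf2bp2 (chr8:126582209-126583993), 10.9 kb downstream of the start, had 7.32, 5.45 and 5.88 CPM in the Veh-Context libraries, 8.35, 5.83 and 6.09 in Veh-CFC, 8.41, 9.79 and 9.66 in HDACi-Context and 12.2, 13.1 and 12.3 in HDACi-CFC, with every drug library above every vehicle library. It rose by 0.90 ± 0.17 (SE; edgeR adjusted p = 0.0037) in CFC, a call lost without Veh-CFC replicate 2 (adjusted p = 0.067). In Context the log2 rise was 0.56 ± 0.16 (SE; edgeR adjusted p = 0.022), and it was lost without Veh-Context replicate 2 or 3 or HDACi-Context replicate 2 or 3 (adjusted p = 0.076 to 0.15). Beside March10 a region (chr11:105456830-105458821) changed by log2 −0.71 ± 0.15 in CFC and −0.86 ± 0.14 in Context (SE), and the former did not pass without Veh-CFC replicate 2, Veh-CFC replicate 3 or HDACi-CFC replicate 3 (adjusted p = 0.066 to 0.092).

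The prevailing direction changed with the scaling: library totals gave 49 higher and 57 lower, and loess offsets 57 higher and 101 lower. The 94 calls became 342 without Veh-CFC replicate 1, 13 without Veh-CFC replicate 2, 23 without Veh-CFC replicate 3 and 157 without HDACi-Context replicate 1. Without HDACi-CFC replicates 1, 2 and 3 the counts were 14, 32 and 10.

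**Figure D5:**
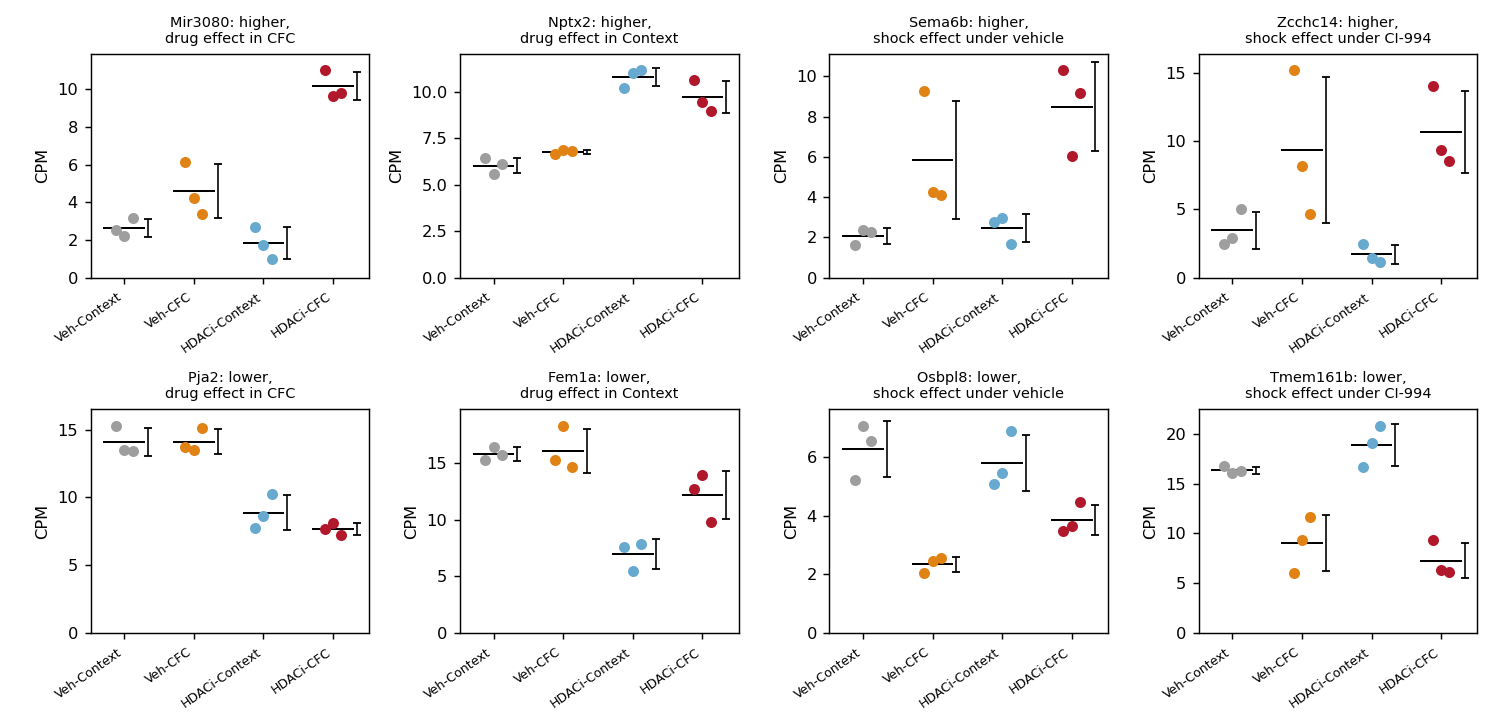
CPM in each library (points) with the group mean (line) and SD (bar, n = 3) at a named region that rose (top) and one that fell (bottom) in each comparison. Nptx2 is higher in both drug groups, Pja2 is lower in both drug groups, and Tmem161b is lower in both shocked groups.

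The drug effect itself differed between shocked and unshocked mice at 11 regions (0.0759%), against 0.034% of all peaks, and all 11 had a more positive drug effect with shock. At an unadjusted p under 0.05 there were 1584 in that direction (10.9%) and 275 in the other (1.9%), against 7.4% and 4.07% of all peaks and 11.6% and 1.84% of intronic active enhancers. The 11 included regions beside Hpca, the calcium sensor hippocalcin, Kcnj4, an inward rectifier potassium channel, Cebpa, a transcription factor, and Pcdh1, a protocadherin. Hpca (chr4:129121401-129131195) had 36.9, 42.0 and 45.1 CPM in the Veh-Context libraries, 55.8, 46.5 and 43.9 in Veh-CFC, 34.3, 29.1 and 21.6 in HDACi-Context and 63.4, 66.2 and 66.96 in HDACi-CFC, with the HDACi-CFC libraries above all others. The drug effects differed by 0.97 ± 0.18 (SE; edgeR adjusted p = 0.037) on the log2 scale. At Kcnj4 (chr15:79506110-79508415), 2.02 kb upstream of the start, the libraries gave 5.82, 8.39 and 6.98 CPM in the Veh-Context libraries, 11.9, 10.4 and 8.21 in Veh-CFC, 4.38, 3.83 and 2.65 in HDACi-Context and 12.8, 15.7 and 11.7 in HDACi-CFC, a difference of 1.31 ± 0.26 (SE; edgeR adjusted p = 0.037). Mir3080 (chr15:82952623-82954961) had 2.54, 2.21 and 3.16 CPM in the Veh-Context libraries, 6.17, 4.24 and 3.397 in Veh-CFC, 2.71, 1.74 and 1.02 in HDACi-Context and 11.01, 9.67 and 9.83 in HDACi-CFC, a difference of 1.71 ± 0.35 (SE; edgeR adjusted p = 0.041). No region passed in 8 of the 12 fits without 1 library, with library totals or with loess offsets, whereas DESeq2 called 135.

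Immediate early genes, which neurons switch on within minutes of activity, had 80 regions beside 20 of 28 listed genes. The median distance of these regions was 24585.5 bp. With shock under CI-994, 31 rose (38.8%) and 7 fell (8.75%), against 20.2% and 17.8% of all peaks (median 0.20). Of all regions 10 to 30 kb from a start, 23.5% rose and 11% fell. Under vehicle 2 of the 80 rose and 2 fell. Their summed level was 745 to 780 CPM in Veh-Context, 761 to 787 CPM in Veh-CFC, 711 to 735 CPM in HDACi-Context and 836 to 878 CPM in HDACi-CFC libraries. Junb, of the AP-1 family, had 9.63, 10.2 and 9.63 CPM in the Veh-Context libraries, 18.1, 14.1 and 12.3 in Veh-CFC, 6.81, 7.01 and 5.71 in HDACi-Context and 15.2, 15.4 and 16.9 in HDACi-CFC in a region 5.78 kb upstream of its start (chr8:84983312-84985744). Shocked libraries stood above unshocked ones, by 1.28 ± 0.15 (SE; edgeR adjusted p = 7.19e-09) under CI-994 and 0.60 ± 0.15 (SE; edgeR adjusted p = 0.014) under vehicle. The latter rested on 2 libraries: its edgeR adjusted p was 0.073 when Veh-Context replicate 1 was left out and 0.17 when Veh-CFC replicate 1 was. Beside Nr4a1, a nuclear receptor, the region rose by 1.28 ± 0.19 (SE; edgeR adjusted p = 1.06e-06) under CI-994, and beside Gadd45b, a stress-response gene, by 1.43 ± 0.18 (SE; edgeR adjusted p = 2.43e-08). Npas4, an activity-dependent factor, had 31.6, 36.5 and 30.1 CPM in the Veh-Context libraries, 32.8, 33.1 and 32.7 in Veh-CFC, 31.3, 31.2 and 25.2 in HDACi-Context and 41.4, 43.3 and 38.6 in HDACi-CFC in a region 3.73 kb upstream of its start (chr19:4990200-4997205). The HDACi-CFC libraries were above the other 9, and the shock effect under CI-994 was 0.49 ± 0.12 (SE; edgeR adjusted p = 0.00087). A region 68.1 kb upstream of Jun had a shock effect of −0.24 ± 0.12 (SE; edgeR adjusted p = 0.12) under CI-994.

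Glutamate receptors and proteins of the postsynaptic density had 95 regions beside 15 of 40 genes, at a median distance of 150534 bp. Under CI-994, 35 fell (36.8%) and 8 rose (8.42%) with shock, against 17.8% and 20.2% of all peaks (median −0.38), and under vehicle 14 fell and 1 rose (median −0.28). Of all regions 100 to 300 kb from a start, 26.7% fell and 7.31% rose under CI-994 (median −0.27). The median under vehicle was −0.25 there, so much of this lean was shared by regions at such distances. Regions beside Camk2b and Shank3, close to the start, rose. Camk2b, a subunit of CaMKII, had 18.1, 22.8 and 23.7 CPM in the Veh-Context libraries, 27.5, 26.0 and 23.9 in Veh-CFC, 16.9, 15.4 and 11.8 in HDACi-Context and 26.1, 35.9 and 29.7 in HDACi-CFC in a region 2.58 kb upstream of its start (chr11:6066049-6070609), where the shocked libraries were above the unshocked ones. The log2 fold change was 1.05 ± 0.14 (SE; edgeR adjusted p = 8.25e-08) under CI-994. Shank3, a scaffold of the postsynaptic density, rose by 1.24 ± 0.19 (SE; edgeR adjusted p = 2.17e-06) in a region 2.12 kb upstream of its start. A region 199 kb upstream of Dlgap1, another scaffold (chr17:69766495-69774129), had 89.1, 76.4 and 83.6 CPM in the Veh-Context libraries, 59.7, 80.6 and 83.8 in Veh-CFC, 51.4, 60.1 and 60.9 in HDACi-Context and 49.5, 58.5 and 51.6 in HDACi-CFC. Every drug library was below every Veh-Context library, and the drug effect in Context was −0.53 ± 0.12 (SE; edgeR adjusted p = 0.0016).

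Among genes of cAMP, calcium and MAP kinase signalling, 16 of 121 regions rose (13.2%) and 20 fell (16.5%) with shock under CI-994, no more than the 20.2% and 17.8% of all peaks. Pde4a, a cAMP phosphodiesterase, had 7.62, 7.66 and 8.09 CPM in the Veh-Context libraries, 19.0, 16.01 and 9.48 in Veh-CFC, 9.73, 7.998 and 5.64 in HDACi-Context and 19.1, 20.5 and 20.1 in HDACi-CFC at chr9:21161659-21165496, and rose by 1.35 ± 0.17 (SE; edgeR adjusted p = 2.40e-07) under CI-994 and 0.94 ± 0.19 (SE; edgeR adjusted p = 0.0035) under vehicle. Of 68 regions beside ion channels, 9 rose (13.2%) and 21 fell (30.9%). Cacna1h, a T-type calcium channel, rose by 1.88 ± 0.21 (SE; edgeR adjusted p = 3.96e-07), whereas a region 253 kb downstream of Kcna4, a potassium channel, changed by −0.93 ± 0.17 (SE; edgeR adjusted p = 4.12e-05). Of 12 regions beside GABA receptors 3 rose (25.0%) and 2 fell (16.7%), shares near those of all peaks, and Gabrd, the delta subunit of extrasynaptic receptors, rose by 0.77 ± 0.14 (SE; edgeR adjusted p = 2.28e-05). Regions beside histone deacetylases numbered 11 at 4 genes, and 3 rose (27.3%) and 1 fell (9.09%) with shock under CI-994. The rises lay beside Hdac4 and Hdac11, which are not of class I, the class that the drug blocks, and the drop beside Hdac4. Each Hdac4 rise was lost in at least 1 fit without 1 library (edgeR adjusted p up to 0.082 and 0.065). The region beside Hdac2, of class I, had a log2 fold change of 0.024 ± 0.26 (SE; edgeR adjusted p = 0.95). Glucocorticoid response genes had 26 regions, of which 6 rose (23.1%) and 1 fell (3.85%). They included Ddit4, an inhibitor of mTORC1, at 1.28 ± 0.17 (SE; edgeR adjusted p = 1.39e-07), and Fkbp5, a co-chaperone of the glucocorticoid receptor, at 2.20 ± 0.43 (SE; edgeR adjusted p = 8.27e-05), although the latter averaged 1.38 CPM.

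Regions beside granule neuron markers numbered 36, at a median distance of 70173 bp. With shock under CI-994, 16 rose (44.4%) and 2 fell (5.56%), against 20.2% and 17.8% of all peaks (median 0.38). Of all regions 30 to 100 kb from a start, 17% rose and 17% fell. With the drug in Context 6 of the 36 fell (16.7%) and 0 rose, against 5.85% and 2.73% of all peaks. Both comparisons use the HDACi-Context libraries. Bcl11b, a transcription factor, had 48.0, 53.9 and 62.6 CPM in the Veh-Context libraries, 69.9, 69.3 and 67.7 in Veh-CFC, 39.4, 35.6 and 26.2 in HDACi-Context and 59.8, 69.2 and 65.5 in HDACi-CFC in a region 67.1 kb upstream of its start (chr12:108066009-108074929). Under CI-994 it rose by 0.94 ± 0.12 (SE; edgeR adjusted p = 7.31e-08), and the drug effect in Context was −0.70 ± 0.12 (SE; edgeR adjusted p = 0.00011). Rfx3, another factor, had 64.4, 52.4 and 60.2 CPM in the Veh-Context libraries, 56.0, 72.4 and 69.8 in Veh-CFC, 33.6, 39.3 and 35.6 in HDACi-Context and 39.3, 57.3 and 49.3 in HDACi-CFC at chr19:28085944-28091606, with the HDACi-Context libraries below those of Veh-Context, and a drug effect in Context of −0.71 ± 0.12 (SE; edgeR adjusted p = 0.0001). Markers of CA pyramidal neurons had 28 regions, at a median distance of 14900 bp. Of all regions 10 to 30 kb from a start, 23.5% rose and 11% fell with shock under CI-994. Of the 28, 16 rose (57.1%) and 0 fell (median 0.95). Their summed level overlapped between vehicle groups, at 109.9 to 138 CPM in Veh-Context and 109.6 to 159 CPM in Veh-CFC, and was 87.9 to 109.8 CPM in HDACi-Context and 125 to 161 CPM in HDACi-CFC. Of 9 regions beside oligodendrocyte markers, 5 rose, and their sums were 69.9 to 83.7 CPM in HDACi-Context and 93.5 to 102 CPM in HDACi-CFC. Interneuron markers had 17 regions, of which 5 rose (29.4%) and 2 fell (11.8%). The Npy region whose start window is printed above had 10.0, 9.27 and 10.1 CPM in the Veh-Context libraries, 6.29, 6.89 and 7.22 in Veh-CFC, 9.73, 9.74 and 10.8 in HDACi-Context and 7.39, 9.78 and 8.15 in HDACi-CFC, and changed by −0.54 ± 0.17 (SE; edgeR adjusted p = 0.042) with shock under vehicle, which was lost without any 1 Veh-Context library, Veh-CFC replicate 1 or 2, HDACi-Context replicate 2 or HDACi-CFC replicate 3 (0.052 to 0.19) and by DESeq2 (0.070). Astrocyte, microglial and endothelial markers had 6, 6 and 14 regions, of which 1, 1 and 0 rose and 0, 0 and 3 fell, and no region lay beside a marker of oligodendrocyte precursors.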

How the data were processed

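H3K27ac peak counts were deposited by the authors as 1 table of raw counts per peak, with the gene, distance, annotation and chromatin state of each peak. Per the submitters' processing notes, the build was mm10, and the tools, listed with no role, were HOMER 4.11, MACS2, DESeq2 1.28.1, Trimmomatic 0.38, DiffBind 2.16.2, SAMtools 1.9 and Bowtie2 2.3.5. The lowest count in every library is 1, and its origin is not given in the sources used here. The members and gene lists were chosen with earlier results of these data known.

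All 144154 peaks were fitted in edgeR 4.0.16 (limma 3.58.1, R 4.3.3) with TMM scaling, filterByExpr at a minimum count of 10, 1 term per group and the robust quasi-likelihood F test, with Benjamini-Hochberg adjustment over the 144014 peaks tested and calls at adjusted p under 0.05. CPM of regions are counts per 1000000 of a library's peak total after TMM scaling. The sums for marker peaks within 5 kb of a start use the peak total without that scaling. Named regions are the 6 largest rises and drops of each comparison, among called regions at or above the members' median CPM whose libraries do not overlap, the 4 largest and 4 smallest called interactions at that CPM, and per gene list 3 of the highest CPM and up to 3 of the smallest adjusted p; some are not reported here. The procedure was tested on simulated counts with 200 changed peaks. Alternatives were DESeq2, its size factors, library totals, loess offsets, no filter, a replicate block, fits on 6 libraries and fits without each library. Every scaling used sets the libraries to a common level. Rises and drops are therefore relative, and a change of the mark at all peaks alike was not tested. Precision is limited by 3 libraries per group and by a median count of 29 to 75 per region and library. Same-numbered libraries did not deviate together (correlations of −0.28 to 0.35, median 7e-04), so numbers were not taken as pairs. Region sequences need a genome and were not used here; start windows come from RefSeq (GRCm38.p6).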

Additional observations from a re-analysis of the deposited data

Results flagged for a closer look

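At 11 regions the drug effect differed between shocked and unshocked mice by edgeR's interaction test, each time more positive with shock. The log2 differences were 1.71 beside Mir3080, 1.31 beside Kcnj4, 1.06 beside Dio3os, 1.01 beside Cebpa, 0.97 beside Hpca, 0.94 beside Snord12, 0.94 beside Gm11733 and 0.88 beside Pcdh1. The Gm11733 region (chr11:117520890-117527291) had 26.6, 31.8 and 30.7 CPM in the Veh-Context libraries, 37.8, 37.2 and 32.7 in Veh-CFC, 19.2, 15.8 and 11.8 in HDACi-Context and 37.8, 34.01 and 36.9 in HDACi-CFC, where the HDACi-Context libraries lay below all CFC libraries. Cebpa (chr7:35120369-35125865) had 11.9, 16.1 and 16.8 CPM in the Veh-Context libraries, 24.9, 23.5 and 19.2 in Veh-CFC, 13.7, 10.4 and 10.2 in HDACi-Context and 32.4, 36.6 and 36.5 in HDACi-CFC, with the HDACi-CFC libraries above the other 9.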

How the results depend on the processing

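Counts of called regions were stable for shock under CI-994 (5248; 3508 to 5756 without 1 library) and less so elsewhere: 10 to 342 for the drug in CFC, 444 to 1742 for the drug in Context, 112 to 1415 for shock under vehicle and 0 to 529 for the interaction. Loess offsets gave 158 calls for the drug in CFC, and DESeq2 gave 597 for shock under vehicle. For the interaction, DESeq2 size factors gave 18 calls, library totals 0, loess offsets 0 and DESeq2 135; at an unadjusted p under 0.05 edgeR had 1584 more positive and 275 more negative (all peaks 10663 and 5868). A replicate block, tried although same-numbered libraries did not deviate together, gave 17 calls for the interaction, 108 for the drug in CFC, 1268 for the drug in Context, 1087 for shock under vehicle and 5188 for shock under CI-994. The cause of these shifts was not tested. No named call reversed in any setting. Without 1 library in turn, 75 of 92 named calls for shock under CI-994 always passed, as did 22 of 47 for the drug in Context, 13 of 29 for shock under vehicle, 1 of 15 for the drug in CFC and 0 of 8 for the interaction. In fits that leave 2 libraries in a group, fewer samples enter.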
